A study of Mus musculus with 7 samples.

Results

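A set of 10 genes that mark retinal ganglion cells was followed through an H3K18La (lactylation of histone H3 at lysine 18) CUT&Tag time course of mouse retina: Pou4f1, Pou4f2, Rbpms, Sncg, Nefl, Nefm, Thy1, Slc17a6, Atoh7 and Eomes. All peaks that the deposited annotation assigned to these 10 gene symbols were taken, which gave 22 of the 108253 peaks. The 22 peaks belonged to 9 of the 10 genes, and Nefl had none. Of these peaks 6 lay in promoters, 10 in introns (9 of Rbpms and 1 of Slc17a6) and 6 in distal intergenic regions. Rbpms alone held 10 of the 22, so Rbpms weighs heavily on any count over peaks.

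The libraries came from whole retinas of C57Bl/6J mice at postnatal days 4, 10 and 28 (P4, P10 and P28), with 2, 2 and 3 libraries per age. All animals shared this genotype, and age was the only factor that differed by label apart from a batch number, which was 2 for P28 replicate 1 and 1 for the rest. In CUT&Tag, an antibody against the mark tethers an enzyme to chromatin, and the DNA released or tagged there is sequenced. The comparison asks how the mark is distributed over these genes while the retina matures.

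Retinal ganglion cells are the output neurons of the retina, and their axons form the optic nerve. They are born before birth, early among retinal neurons, and many are lost by programmed death in the first postnatal days, while rods, which make up most of the mouse retina, are completed after birth. Atoh7 gives progenitors the competence to form ganglion cells, Pou4f2 and Pou4f1 act in their differentiation and survival, and Eomes (Tbr2) serves intrinsically photosensitive ganglion cells. The other genes mark the mature cell: neurofilament subunits (Nefl, Nefm), an RNA-binding protein (Rbpms), gamma-synuclein (Sncg), a surface glycoprotein (Thy1) and the vesicular glutamate transporter VGLUT2 (Slc17a6). In whole retina, fewer ganglion cells and less mark per ganglion cell cannot be told apart, and neither can marks on these genes in other cell types.

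The sequences on which the results below turn were the start regions of the transcription factors and the single Eomes peak. For each gene, the RefSeq window (GRCm38.p6) from 250 bases before to 50 bases after the start is printed on the gene's own strand. Capitals mark the GC box GGGCGG on either strand (CCGCCC where it lies on the opposite strand), with overlapping boxes counted separately. The Atoh7 window (chr10:63099535-63099834, plus strand) had its own peak over 229 of its 300 bases, and the Pou4f1 window (chr14:104467950-104468249, minus strand) over 176. The Pou4f2 window (chr8:78436598-78436897, minus strand) is shown because it lay under no peak. The last line is the central 300 bases of the Eomes peak (chr9:118475238-118475537, plus strand), the only member peak that was called at P28 against P4.
Atoh7 promoter: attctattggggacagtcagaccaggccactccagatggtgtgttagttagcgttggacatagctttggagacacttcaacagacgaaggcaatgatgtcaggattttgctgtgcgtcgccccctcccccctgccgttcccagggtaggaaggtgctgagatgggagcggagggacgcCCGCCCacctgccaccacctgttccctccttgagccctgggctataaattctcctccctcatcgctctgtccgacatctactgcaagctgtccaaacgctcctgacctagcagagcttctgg
Pou4f1 promoter: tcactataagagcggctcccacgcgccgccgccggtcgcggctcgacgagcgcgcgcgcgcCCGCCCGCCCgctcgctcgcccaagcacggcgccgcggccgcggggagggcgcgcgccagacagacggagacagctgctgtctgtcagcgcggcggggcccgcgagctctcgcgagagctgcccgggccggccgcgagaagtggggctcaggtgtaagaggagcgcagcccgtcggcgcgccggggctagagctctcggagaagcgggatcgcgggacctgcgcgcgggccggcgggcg
Pou4f2 promoter: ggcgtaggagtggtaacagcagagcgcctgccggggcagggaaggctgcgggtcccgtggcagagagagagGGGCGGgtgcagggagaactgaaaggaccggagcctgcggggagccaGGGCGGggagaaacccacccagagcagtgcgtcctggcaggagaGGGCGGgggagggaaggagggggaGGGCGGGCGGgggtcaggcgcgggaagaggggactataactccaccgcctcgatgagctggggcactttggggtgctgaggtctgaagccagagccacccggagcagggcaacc
Eomes peak: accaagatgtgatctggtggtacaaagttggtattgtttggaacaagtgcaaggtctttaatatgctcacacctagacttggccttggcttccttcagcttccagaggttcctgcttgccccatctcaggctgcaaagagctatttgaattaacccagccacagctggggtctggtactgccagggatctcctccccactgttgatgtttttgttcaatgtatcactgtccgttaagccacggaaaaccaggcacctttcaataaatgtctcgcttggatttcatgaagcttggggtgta

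The Atoh7 window held 1 GC box, the Pou4f1 window 2 and the Pou4f2 window 5, and 35.7% of the 32851 RefSeq windows of this length held at least 1. The Eomes window held none, and neither did the printed part of the Eomes peak. The Pou4f1 window was 78.3% G or C with 57 CG pairs, which placed it at percentile 98.2 of all windows by G and C content. The Pou4f2 window was at 69.7% (percentile 90.4), the Atoh7 window at 57.0% (percentile 62.6) and the Eomes window at 47.3% (percentile 29.7). The Atoh7 box lay within the Atoh7 promoter peak, which covered 229 bases of the window. Neither Pou4f1 box lay within the Pou4f1 promoter peak, which covered 176 bases, and no peak lay at the Pou4f2 start. Over whole peaks, the promoter peaks of Pou4f1 (74.9%), Rbpms (69.2%) and Nefm (66.3%) were at or above percentile 98.2 of all peaks by G and C content. Of the 22 member peaks 2 had a GC box in their central 200 bases, against 8.74% of all peaks.

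Values are RPKM as deposited, which is reads per kilobase of peak and per 1000000 of the authors' normalised library size. The whole reads behind each value could be recovered, and reads without the division by width are given as RPM, per 1000000 of the same size. The libraries held from 199970 (P10 replicate 1) to 8274373 (P28 replicate 2) reads in peaks, and a peak was covered far more thinly at P4 and P10 than at P28. Reads in peaks made up 16.3% and 17.6% of the normalised library size at P4, against 36.1% to 57.1% in the other 5 libraries. These shares moved with age and their part in the results was not tested. Values on both scales are given for the member median, the summed level and the named peaks whose call or sign at P28 changed with the scale. Where the libraries of an age together held 0 reads, the true level may be worth up to 3 reads. The peak set merged the peaks called at each age, so a peak that entered through a given age is high there by selection. The age of entry of each member peak was not examined. The study's methods speak of biological replicates, and neither they nor the labels say which animals went into which library, so p-values measure the spread between these libraries, which may be technical.

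Most H3K18La peaks of the retina had higher values at P28 than at P4, and most of the ganglion cell gene peaks had lower ones. The change, given as the difference in mean log2(RPKM + 1), had a median of -0.52 over the 22 member peaks and of 0.68 over all peaks. Over the 16 member peaks with at least 20 reads it was -0.02, against 1.01 over all such peaks. That filter is not independent of the change, since P28 gave 82.2% of the reads in member peaks, and all 6 member peaks it left out were lower at P28. Of the member peaks 8 were higher and 14 lower at P28, while 66.5% of all peaks were higher. At promoters the medians were -0.39 for the 6 member peaks and 1.26 for all 17144 promoter peaks. None of the 22 was called higher and 1 was called lower at P28 (limma over all peaks, Benjamini-Hochberg adjusted p under 0.01), the Eomes peak. Of all peaks 18.9% were called higher and 4.21% lower, 23.1% in all. Scaling each library to its reads in peaks moved the median of all peaks to -0.29 and the share of all calls that were higher from 81.8% to 32.3%, so values relative to all peaks are the safer reading. The member median less that of all peaks was -1.21 on the deposited scale and -1.33 on the other. At an unadjusted limma p under 0.05 there were 7 of 22 member peaks, against 51.8% of all peaks. In 5 of the 22 every P28 library lay above every P4 library, against 50.6% of all peaks, and in 9 every P28 library lay below, against 20.7%. Within batch 1, that is without P28 replicate 1, the member median was -0.56 against 0.76 over all peaks. The single call then fell on the Rbpms peak 29.1 kb after the start (-1.22, limma, adjusted p = 0.00432), on 2 reads at P4 and 1 at P28, while the Eomes peak was at -1.50 (adjusted p = 0.0117). In that fit 13.7% of all peaks were called, 2.17% lower.

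**Figure D1:**
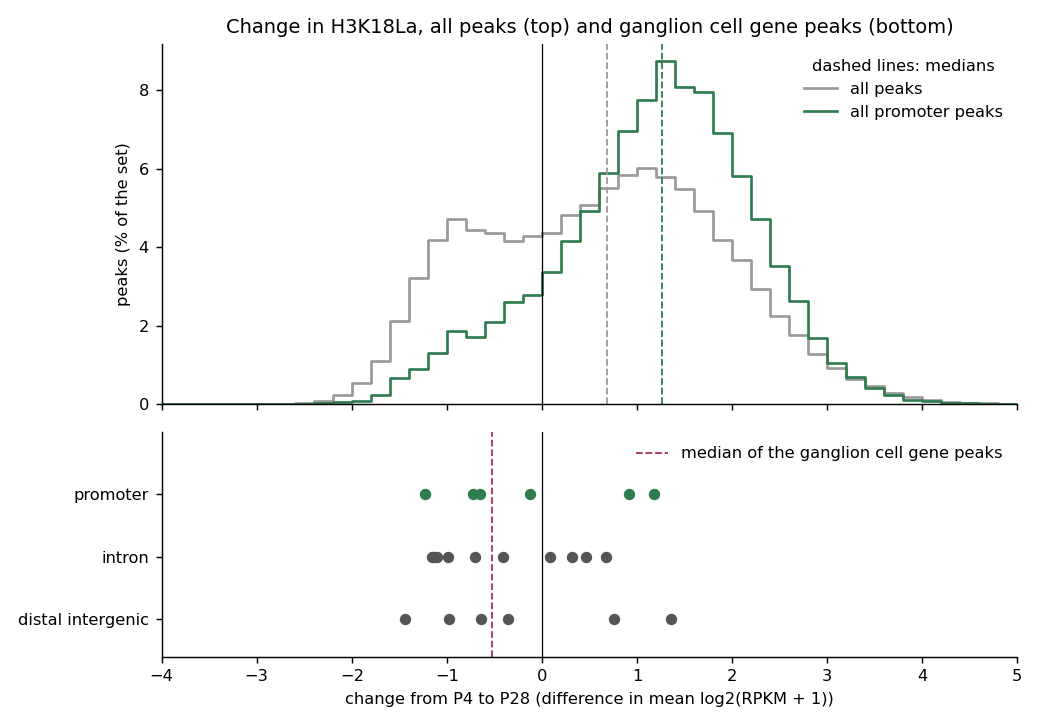
Change in H3K18La from P4 to P28, as the difference in mean log2(RPKM + 1). The top panel gives all 108253 peaks (grey) and all promoter peaks (green) as percent of each set per bin of 0.2 with dashed medians at 0.68 and 1.26, and the bottom panel gives 1 point for each of the 22 ganglion cell gene peaks by class, with their median at -0.52 (red dashed line); the member peaks reach no further than 1.36 to the right.

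The member peaks were narrower than most, with a median width of 543.5 bases against 757, and width moved with the change. Over all peaks narrower than 757 bases the median change was 0.08, and over the wider ones it was 1.07. The 16 narrower member peaks had a median of -0.68 and the 6 wider ones of 0.57, so that each of these medians lay below that of all peaks of the same width class. The RPKM of 1 or 2 reads is also high where a peak is narrow and a library shallow. Ranked by RPKM among all peaks of the same library, the member peaks had median percentiles of 71.0 and 66.0 at P4, 22.9 and 40.9 at P10, and 30.4, 35.4 and 23.7 at P28. Ranked by reads, the medians were 45.6 and 52.3 at P4, 22.9 and 38.6 at P10, and 26.6, 26.7 and 22.2 at P28. Reads are not divided by width, so this ranking can place narrow peaks lower than the ranking by RPKM. By either measure both P4 libraries ranked these peaks above every P10 and P28 library. Ranks within a library do not depend on how libraries are scaled, but they can depend on depth and on the share of reads in peaks. At P4 the median over all peaks was 2 reads in each library. In P10 replicate 1, 45.8% of all peaks held no read, and 22.9 is the shared rank of those peaks. The part of depth in these ranks was not tested.

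**Figure D2:**
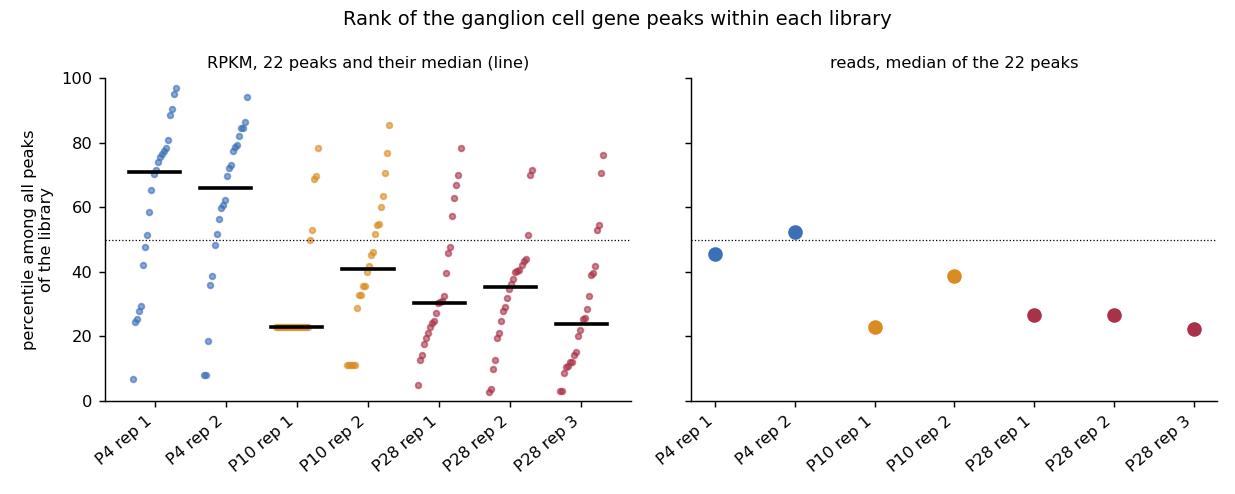
Percentile of the 22 ganglion cell gene peaks among all 108253 peaks of the same library, by RPKM with 1 point per peak and a line at the median (left) and by recovered reads with the median only (right). The dotted line marks percentile 50, and the medians at P4 (71.0 and 66.0 by RPKM) lie above those of every other library; in P10 replicate 1 most points coincide because 17 of the 22 peaks held no read.

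Summed over the 22 peaks, the levels at P4 and P28 overlapped on the deposited scale. The 22 peaks held 29.08 and 28.05 RPM at P4, 10.8 and 32.3 at P10, and 25.7, 28.8 and 28.2 at P28. The mean was 28.6 ± 0.73 (SD, n = 2) at P4 and 27.5 ± 1.62 (SD, n = 3) at P28, a difference within the spread of the libraries (two-sided exact permutation test, p = 0.6, smallest possible 0.2). As a share of the reads in peaks, the same 22 peaks took 178 and 159 per 1000000 at P4, 30.0 and 62.1 at P10, and 60.6, 56.6 and 49.3 at P28. On that scale P4 was 3.04-fold above P28 with no overlap between the ages (exact permutation test, p = 0.2, the smallest that 3 against 2 libraries allow).

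Among the transcription factors, the promoter peaks of Atoh7 and Pou4f1 stood on opposite sides. The Atoh7 promoter peak (ENSMUSG00000036816, chr10:63099606-63100808) had 2.64 and 1.49 RPKM at P4, 1.50 and 1.31 at P10, and 3.71, 4.44 and 6.17 at P28. Every P28 library lay above every P4 and P10 library, and the ages P4 and P10 overlapped. The reads behind these levels were 10 at P4, 3 at P10 and 147 at P28. The change from P4 to P28 was 0.92 ± 0.40 (SE) and was not called (limma, adjusted p = 0.0891), and all promoter peaks had a median of 1.26. The rate of reads at P28 was 2.20 times that at P4 (exact 95% counting interval 1.16 to 4.69). Scaled to the reads in peaks, the sign of the Atoh7 change was reversed at -0.27.

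The Pou4f1 promoter peak (ENSMUSG00000048349, chr14:104467389-104468125) had 4.32 and 2.43 RPKM at P4, 0 and 1.07 at P10, and 1.07, 1.00 and 0.47 at P28. Both P4 libraries lay above all 5 later libraries. The change from P4 to P28 was -1.23 ± 0.47 and was not called (limma, adjusted p = 0.0587), and the change to P10 was -1.57 ± 0.51 (limma, adjusted p = 0.038). The reads were 10, 1 and 17, where 66.7 would be expected at P28 at the rate of P4, so that the rate at P28 was 0.25 of that at P4 (95% counting interval 0.11 to 0.62). Only 1.80% of all promoter peaks had a change this low. Scaled to the reads in peaks it was called lower at P28 (-2.35, limma, adjusted p = 0.00585), as it was with voom on the recovered reads (-1.98, adjusted p = 0.0059). Over 14 alternatives the adjusted p ranged from 0.00585 to 0.258 and the change stayed negative.

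Pou4f2 (ENSMUSG00000031688), the factor most tied to ganglion cell fate after Atoh7, had no promoter peak and 3 distal peaks, whose changes differed in sign. The peak 18.4 kb before the start (chr8:78455012-78455560) had 1.66 and 3.26 RPKM at P4, 0 in both P10 libraries, and 0.96, 0.56 and 0.63 at P28. Both P4 libraries lay above the others, and the change to P28 was -0.98 ± 0.34 (limma, adjusted p = 0.0405). It was called lower when scaled to the reads in peaks (-2.03, limma, adjusted p = 0.00378). The same held with the libraries centred on their medians (-1.50, limma, adjusted p = 0.00937). The peak 15.9 kb after the start (chr8:78420268-78420768), past the end of the gene, had 0 and 1.19 RPKM at P4, 0 in both P10 libraries and 2.62, 2.70 and 3.10 at P28. Here all P28 libraries lay above all others, with a change of 1.36 ± 0.42 (limma, adjusted p = 0.0264), the highest of the 22 but resting on 1 read at P4 against 36 at P28. It was called in the test over all ages (limma F-test, adjusted p = 0.00992), as was the Eomes peak (adjusted p = 0.0028), and these were the 2 member peaks called, against 24.6% of all peaks. No member peak was called in that test without P4 replicate 1, P4 replicate 2, P28 replicate 2 or P28 replicate 3, and the rate of reads at +15.9 kb was 5.39 times that at P4 with a 95% counting interval of 0.91 to 219. The neighbouring peak at 16.7 kb had 1 read at P4, 2 at P10 and 22 at P28, with a change of 0.76 ± 0.55 (limma, adjusted p = 0.281).

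Eomes (ENSMUSG00000032446) had a single peak 2.6 kb before its start (chr9:118475179-118475597). It had 3.25 and 2.85 RPKM at P4, 0 and 0 at P10, and 0.63, 0.44 and 0.41 at P28. Both P4 libraries lay above all P28 libraries. At the rate of P28 the P10 libraries would have held 0.35 reads, so their 0 reads cannot be told apart from the level at P28. The change to P28 was -1.44 ± 0.30 and was called lower (limma, adjusted p = 0.00455). If this peak entered the set through P4, its P4 level is high by selection, and the call is then no independent evidence of a fall. The call rested on few reads, 5 at P4 and 5 at P28, where 33.4 would be expected at the rate of P4, a rate 6.67-fold lower (95% counting interval 1.54 to 29.0). It was lost without any single P4 or P28 library, with a pseudocount of 0.1 and with the reads thinned to the smallest library. Over 13 alternatives the limma adjusted p ranged from 0.00121 to 0.246, while the change itself stayed between -2.52 and -1.37.

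**Figure D3:**
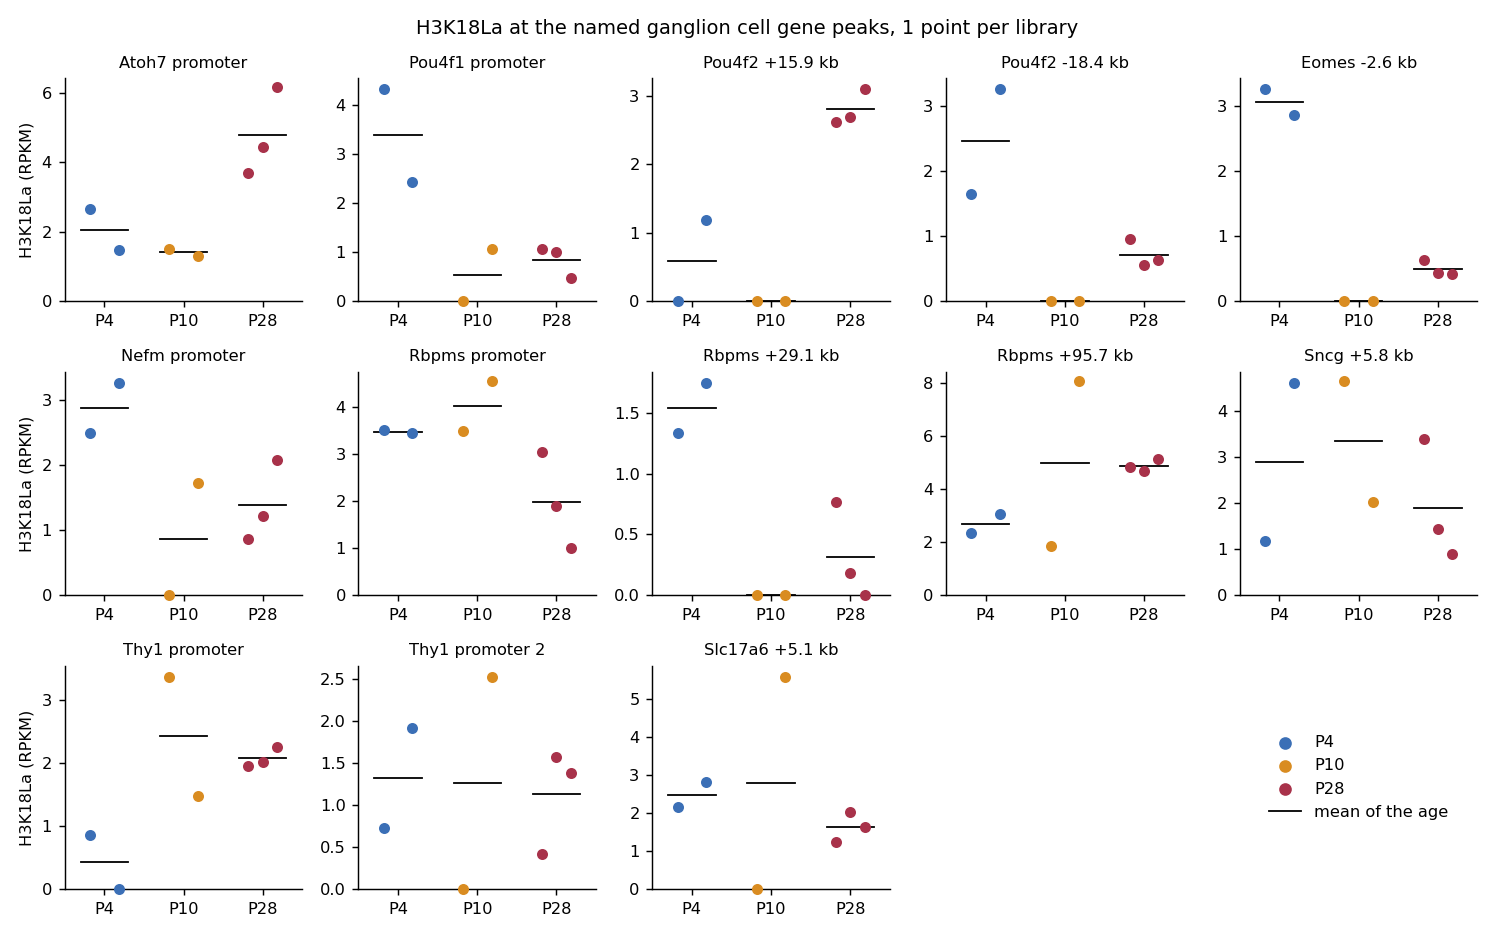
H3K18La in RPKM (linear axes that start at 0 and differ between panels) at the 13 named ganglion cell gene peaks, with 1 point per library and a line at the mean of each age. Pou4f1, the upstream Pou4f2 peak and Eomes are highest in the P4 libraries, while Atoh7 and Pou4f2 at +15.9 kb are highest in the 3 P28 libraries (3.71 to 6.17 and 2.62 to 3.10 RPKM).

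The neurofilament genes Nefl and Nefm lie next to each other on chromosome 14. Nefm (ENSMUSG00000022054), the medium subunit, had a promoter peak (chr14:68124130-68125045) with 2.48 and 3.26 RPKM at P4, 0 and 1.72 at P10, and 0.86, 1.21 and 2.07 at P28. Both P4 libraries lay above all later ones, by a margin that did not pass the test (-0.73 ± 0.53, limma, adjusted p = 0.282). The reads were 10 at P4, 2 at P10 and 32 at P28. The rate at P28 was 0.48 of that at P4, with a 95% counting interval of 0.23 to 1.09. No peak lay within 40 kb of the start of Nefl (ENSMUSG00000022055), the light subunit, and the nearest was the Nefm promoter peak at 40.3 kb.

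Rbpms (ENSMUSG00000031586), an RNA-binding protein found in nearly all ganglion cells, had a promoter peak (chr8:33930006-33930524) with 3.50 and 3.45 RPKM at P4, 3.48 and 4.56 at P10, and 3.03, 1.90 and 1.00 at P28. All P28 libraries lay below all P4 and P10 libraries, and the change of -0.65 ± 0.42 was not called (limma, adjusted p = 0.231). The reads were 7 at P4, 4 at P10 and 25 at P28. The rate at P28 was 0.54 of that at P4, with a 95% counting interval of 0.23 to 1.47. This promoter peak was called lower when scaled to the reads in peaks (-1.85, limma, adjusted p = 0.00841). The 9 Rbpms intron peaks ranged from -1.16 to 0.68 in their change, 4 higher and 5 lower at P28. The peak at 95.7 kb, in intron 5 (chr8:33833201-33834175), was the strongest of them at P28, with 2.33 and 3.06 RPKM at P4, 1.85 and 8.09 at P10, and 4.84, 4.66 and 5.14 at P28. The 3 P28 values were close to each other and above both P4 values (0.68 ± 0.47, limma, adjusted p = 0.267), and this sign was reversed at -0.57 when scaled to the reads in peaks. The peak at 29.1 kb in intron 1 (chr8:33900406-33900746) held 2 reads at P4, 0 at P10 and 2 at P28, too few for a fold. On those reads its change to P28 was -0.99 (limma, adjusted p = 0.0164). It was called lower when scaled to the reads in peaks (-1.85, limma, adjusted p = 0.00216). Summed over its 10 peaks, Rbpms had 14.1 and 13.1 RPM at P4 and 12.6, 13.5 and 11.2 at P28, which overlapped (-0.12 ± 0.49, limma over genes, adjusted p = 0.84).

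Thy1 (ENSMUSG00000032011), a surface glycoprotein long used to isolate ganglion cells, had 2 promoter peaks. The one at its start (chr9:44042936-44044007) had 0.85 and 0 RPKM at P4, 3.37 and 1.47 at P10, and 1.96, 2.01 and 2.26 at P28. The P4 libraries lay below all 5 later ones, with 2 reads in all at P4 and 57 at P28, and the change of 1.18 ± 0.48 was not called (limma, adjusted p = 0.0705). The other, inside the gene (chr9:44045606-44046228) had 0.73 and 1.92 RPKM at P4, 0 and 2.53 at P10, and 0.42, 1.58 and 1.39 at P28, with all ages overlapping (-0.12 ± 0.57, limma, adjusted p = 0.873). Of the 5 genes with a promoter peak, only Thy1 (at its start) and Atoh7 had a positive change there at P28. Both changes lay below the median of 1.26 over all promoter peaks, at percentiles 46.4 (Thy1) and 36.6 (Atoh7) of the promoter changes.

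Sncg (ENSMUSG00000023064) and Slc17a6 (ENSMUSG00000030500) had no promoter peak. The Sncg peak 5.8 kb after the start (chr14:34368615-34369002), past its end, had 1.17 and 4.61 RPKM at P4, 4.65 and 2.03 at P10, and 3.38, 1.43 and 0.89 at P28, with the ages overlapping (-0.36 ± 0.57, limma, adjusted p = 0.624). The other Sncg peak, at 5.0 kb, held 3 reads at P4, 1 at P10 and 13 at P28 (-0.64 ± 0.55, limma, adjusted p = 0.358). The Slc17a6 peak in intron 3 (chr7:51627134-51627556) had 2.15 and 2.82 RPKM at P4, 0 and 5.59 at P10, and 1.24, 2.03 and 1.63 at P28. Both P4 values lay above the 3 P28 values, while the P10 libraries spanned the whole range (-0.41 ± 0.70, limma, adjusted p = 0.653). The reads were 4 at P4, 3 at P10 and 20 at P28. The rate at P28 was 0.75 of that at P4, with a 95% counting interval of 0.25 to 3.01.

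At P10 the member peaks were measured least well, with 6 reads in all in P10 replicate 1 and 41 in replicate 2. The median change from P4 to P10 was -0.59, against 0.23 over all peaks. It was -0.07 without P10 replicate 1 and -1.37 without P10 replicate 2, where all peaks had 0.58 and 0.00, and 0.07 with voom on the recovered reads, where all peaks had 0.81. None of the 22 was called higher and 3 were called lower (limma, adjusted p under 0.01), against 7.34% of all peaks called lower and 18.7% in either direction. They were the Rbpms peak at 29.1 kb (-1.34, adjusted p = 0.00742), the Pou4f2 peak 18.4 kb before the start (-1.75, adjusted p = 0.00604) and the Eomes peak (-2.02, adjusted p = 0.00215). All 3 held 0 reads in both P10 libraries, where the rate of P4 would have given 0.94, 2.35 and 2.35 reads. A count of 0, which allows up to 3 reads, cannot tell these levels from those at P4. Entry into the merged set through P4 would also make these 3 peaks high there by selection, and this was not examined. In 7 of the 22 every P10 library lay below every P4 library (20.9% of all peaks), and in 1, the Thy1 promoter peak, every one lay above (36.1%). Between P10 and P28 none of the 22 was called (limma), as was the case for all but 0.00185% of all peaks, and 4 had an unadjusted p under 0.05, against 32.5% of all peaks.

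Summing the reads over all peaks of a gene gave 9 genes to test. Of these only Eomes was called, lower at P28 (-0.92 ± 0.19, limma, adjusted p = 0.00184) and lower at P10 (-1.19, adjusted p = 0.00111). Its reads are those of its single peak, with 0 at P10, and the call at P28 was lost without P28 replicate 2 or P28 replicate 3. Of all 25420 genes 35.1% were called higher and 7.23% lower at P28, 42.3% in all, and at P10 6.08% were called lower and 24.8% in all. The median change to P28 was -0.28 over the 9 genes and 0.84 over all. Pou4f1 came next to Eomes with -1.08 ± 0.34 (limma, adjusted p = 0.0181), and it was called lower when the libraries were centred on their medians (-1.81, adjusted p = 0.00179). Atoh7 had 0.96 ± 0.40 (adjusted p = 0.0586) and Thy1 0.78 ± 0.38 (adjusted p = 0.0952), and the other 5 lay between -0.70 (Nefm) and 0.32 (Pou4f2).

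Several peaks near Atoh7, Pou4f2 and Thy1 that the annotation gave to other genes were called higher at P28. Within 40 kb of the 10 starts lay 36 peaks, 14 assigned to the members and 22 to neighbours. Of the 22 neighbours 9 were called higher at P28 and none lower, against 18.9% and 4.21% of all peaks. These were chosen after their values were seen, and all 9 lay at those 3 genes. None of the neighbours of Pou4f1 (1 peak), Eomes (3) and Sncg (3) was called, and that of Pou4f1, assigned to D130079A08Rik, was at -1.02. The difference between neighbours and own peaks was not tested. The strongest change was 24.8 kb after the Pou4f2 start, past the gene, in a peak assigned to Ttc29 (chr8:78411019-78412648). It had 0.56 and 0 RPKM at P4, 5.54 and 4.84 at P10, and 12.1, 15.5 and 17.9 at P28, with no overlap between the ages (3.68 ± 0.35, limma, adjusted p = 0.000148). Upstream of Atoh7, a peak at -15.4 kb assigned to Gm48072 had 0 reads at P4, 3 at P10 and 107 at P28 (1.99 ± 0.39, adjusted p = 0.00348), and one at -33.6 kb assigned to Pbld1 had 1, 1 and 225 reads (2.95 ± 0.45, adjusted p = 0.00101). The other 6 lay in or at Usp2, 23.9 to 35.9 kb after the Thy1 start. None of these peaks enters the values of Pou4f2, Atoh7 and Thy1 given here, and which gene any of them acts on was not tested.

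**Figure D4:**
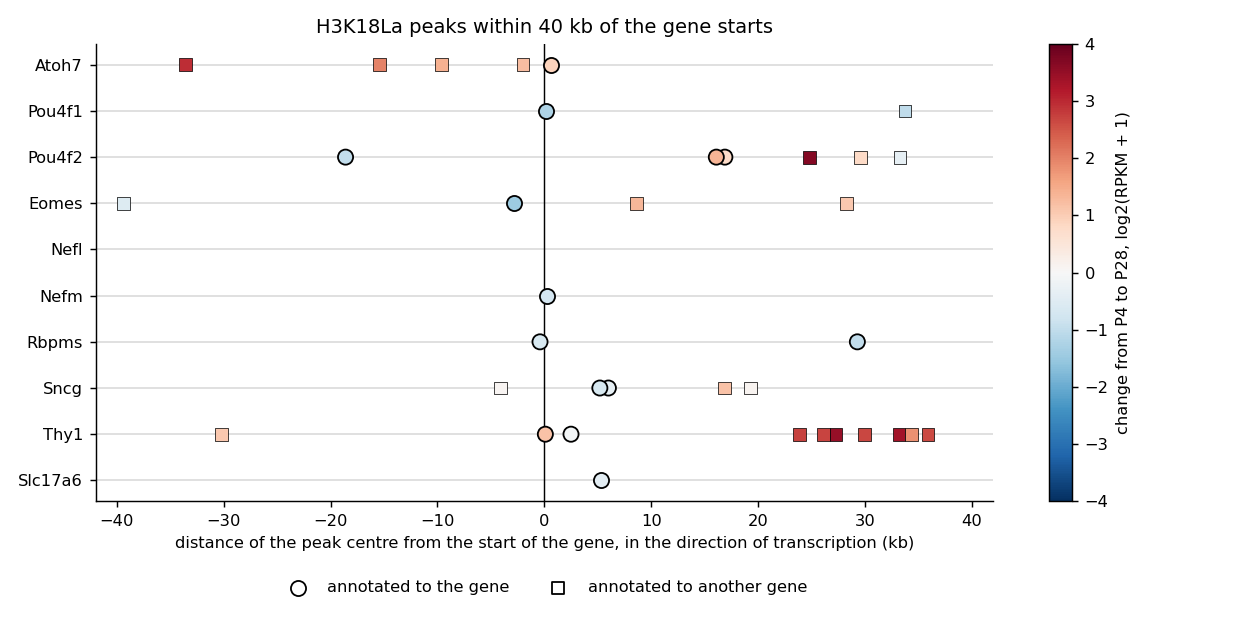
H3K18La peaks within 40 kb of the start of each of the 10 genes, by distance of the peak centre along the direction of transcription. Circles are peaks annotated to the gene and squares peaks annotated to another gene, coloured by the change from P4 to P28; the strongest reds are squares near Pou4f2 (3.68), Thy1 and Atoh7 (2.95), and Nefl has none.

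A wider list of 34 further ganglion cell genes was read the same way at the promoter peak nearest each start. Of these genes 23 had such a peak, as 5 of the 10 members did and 53.3% of all protein-coding genes. The 5 members had a median change to P28 of -0.65 with none called, and the further list had 0.63 with 6 called higher and 1 lower. Over all 11686 genes with such a peak the median was 1.33, with 32.1% called higher and 0.351% lower. The 6 called higher on the further list were Nefh, the heavy neurofilament subunit (2.55 ± 0.42), the neuronal tubulin Tubb3 (2.30 ± 0.30), Rbpms2, a paralog of Rbpms (2.29 ± 0.37), the transcription factor Ebf3 (2.29 ± 0.35), Opn4, which encodes melanopsin (2.15 ± 0.30), and the adhesion protein Jam2 (1.67 ± 0.26). The Nefh peak had 1.16 and 0.91 RPKM at P4, 3.67 and 11.6 at P10, and 10.01, 10.63 and 12.12 at P28, without overlap between P4 and the later ages. The Opn4 peak likewise stood at 1.48 and 1.94 RPKM at P4 against 9.10 to 13.1 at P28. The lowest were the transcription factors Irx2 (-1.28 ± 0.43, limma, adjusted p = 0.0384) and Sox11 (-1.25 ± 0.52, adjusted p = 0.0771). The one called lower, chosen for naming after its values were seen, was the transcription factor Tbx20 (-1.18 ± 0.18, limma, adjusted p = 0.000854), on 4 reads at P4, 0 at P10 and 2 at P28. The difference between the 10 genes and this list was not tested.

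On reads summed per gene, 11 of the 31 further genes with a peak were called higher and 1, Tbx20, lower, against 35.1% and 7.23% of all genes. This balance turned with the scale. When scaled to the reads in peaks, 4 of the 31 were called higher and 12 lower, against 3203 and 7040 of all 25420 genes. With the libraries centred on their medians, 7 were called higher and 7 lower, against 5187 and 5102 of all genes. Tbx20 had no peak but its promoter peak. Genes of other cell types in the same retina were read beside these. At promoters, the rod list had a median change of 2.51 with 13 of 14 called higher. The bipolar list had 0.78 (2 of 9), the Mueller glia list 0.73 (2 of 9) and the amacrine and horizontal list -0.08 (1 of 8). Astrocyte and endothelial genes, from cells that share the inner surface with ganglion cells, had -0.84 (none of 3). None of these 5 lists had a promoter peak called lower. Scaled to the reads in peaks, the medians were -1.85 for the 5 members, -0.18 for the further list, 1.27 for rods and 0.28 for all genes, which left the members lowest and the rods highest of these 4. The bipolar list was at -0.30, the Mueller glia list at -0.47, the amacrine and horizontal list at -1.20 and the astrocyte and endothelial list at -2.05, so that the further list, below the bipolar and Mueller glia lists on the deposited scale, lay above both. On that scale 7.2% of all genes were called higher and 3.60% lower. Of the 5 members none was called higher and 2 lower, of the 23 further genes 1 and 3, and of the 14 rod genes 8 and none. Of the amacrine and horizontal genes 1 was called higher and 2 lower, of the bipolar genes 1 and none, of the Mueller glia genes none and 1, and of the 3 astrocyte and endothelial genes none and 2.

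**Figure D5:**
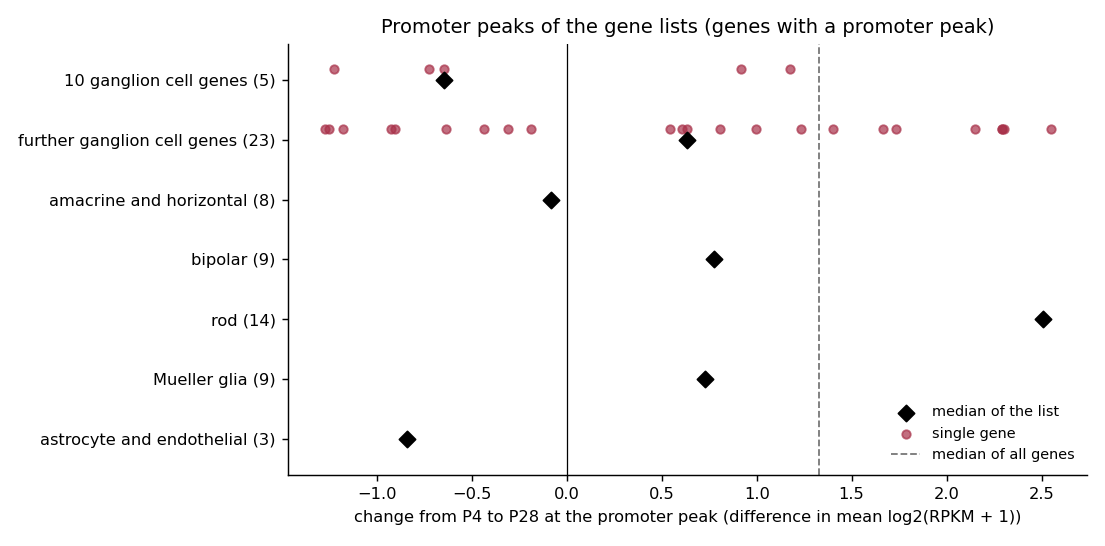
Change in H3K18La from P4 to P28 at the promoter peak nearest the start, as the difference in mean log2(RPKM + 1), with the number of genes that had a promoter peak in brackets. Red points are single genes of the 2 ganglion cell lists, diamonds are list medians and the dashed line is the median of all genes at 1.33; the rod median (2.51) lies to the right of it and the medians of the other lists to the left.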

How the data were processed

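H3K18La CUT&Tag was analysed in 7 mouse retina libraries grouped by age from the labels. The study describes peaks seen in at least 2 of 3 replicates per age; of P4 and P10, 2 libraries each were analysed here. The study's methods name a Tn5 fusion as the tethered enzyme, while the labels name an MNase fusion. The authors mapped the reads to GRCm38, called peaks with MACS, merged those of the 3 ages and annotated them with ChIPseeker (version 1.34.1), with promoters from 1000 bases before to 500 after a start. The deposited values were RPKM per peak and library, on the authors' normalised library sizes. The deposited table of the authors' own differential tests (fold changes, p-values) was not used.

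RPKM times width was a whole multiple (within 0.01) of a fixed amount per library for 100% of the peaks, which gave the reads. Depth was 199970 to 8274373 reads in peaks, and intervals cover counting error only. Tests used log2(RPKM + 1) in limma 3.58.1 under R 4.3.3, fitted over all 108253 peaks and 7 libraries, with age as the factor, a variance trend and Benjamini-Hochberg adjusted p under 0.01. This scale understates the change of low peaks. Gene sums used log2(RPM + 1), with RPM the reads per 1000000 of normalised library size. Single values per library were compared with exact permutation tests (scipy 1.17.1). The fitting code was tested on simulated data.

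The members, the gene lists and the alternatives were chosen with earlier results of these data known. For each member, the promoter peak nearest the start was named, then other peaks that were called or were its highest at P4 or P28. Of the further genes, those called (at most 6) and the lowest 2 were named. Gene starts and types came from the GENCODE annotation of GRCm38, and promoter sequences from RefSeq (GRCm38.p6), whose table held 6 of the 10 members.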

Additional observations from a re-analysis of the deposited data

How the results depend on the processing

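Relative to the median of all peaks, the member median for P28 against P4 lay between -1.86 and -0.90 in all 14 alternatives, beside -1.21 as reported. On its own it was -0.52 and moved to -1.62 when libraries were scaled to the reads in peaks, -0.25 when thinned to the smallest library and -0.02 over the 16 member peaks with at least 20 reads, where all such peaks had 1.01. For P10 against P4 it was -0.59 and moved to -1.90 with a pseudocount of 0.1, -1.62 when scaled, -0.38 with at least 20 reads, 0.00 when thinned and 0.07 with voom on the recovered reads (chosen after seeing the data). Without single libraries the medians ranged from -0.59 to -0.40 (P28) and from -1.37 to -0.07 (P10, lowest without P10 replicate 2).

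The calls rested on few reads. The share of all peaks called by the same fit stands in brackets. The filter of at least 20 reads left out 6 member peaks, all lower at P28 and P10, and among them the 1 called at P28 and the 3 called at P10, so its counts of 0 do not test those calls. For P28 against P4, 1 member peak was called as reported (23.1%), 0 with a pseudocount of 0.1 (14.2%), 0 of the 16 with at least 20 reads (24.0%), 0 when thinned (5.39%), 5 when scaled (22.2%), 3 with median centring (23.0%), 4 with voom (41.5%), and 0 to 1 without single libraries (7.18% to 39.2%). For P10 against P4, the 3 calls (18.7%) became 0 with at least 20 reads (12.4%), 0 when thinned (3.33%), 0 with voom (14.6%), 6 when scaled (20.2%) and 0 to 2 without single libraries (5.05% to 19.4%). In the test over ages, 2 (24.6%) became 1 with a pseudocount of 0.1 (14%), 1 with at least 20 reads (23.9%), 0 when thinned (4.17%), 5 when scaled (23.1%) and 0 to 3 without single libraries (2.75% to 47.3%). On summed reads at P28, 1 gene (42.3% of all genes) became 0 with at least 20 reads (43.2%), 0 when thinned (13.3%), 0 with promoter peaks alone (44.1%), 3 when scaled (40.3%), 2 with centring (40.5%), 2 with voom (57.3%) and 0 to 2 without single libraries (21.5% to 60.4%). At P10, 1 gene (24.8%) became 0 with at least 20 reads (22.9%), 0 when thinned (5.74%), 0 with voom (21.4%), 0 with promoter peaks alone (19.0%), 4 when scaled (34.4%), 2 with centring (28.6%) and 1 to 5 without single libraries (10.8% to 34.5%), the 5 being without P10 replicate 2 (Nefm, Rbpms, Pou4f2, Eomes and Pou4f1). The cause of these shifts was not tested. Eomes, the 1 gene called as reported at P28 and at P10, has no promoter peak. The counts of 0 with promoter peaks alone therefore do not test its calls.

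Signs at P28 against P4 were reversed for the Atoh7 promoter peak (0.92) at -0.27 when scaled and -0.17 when thinned, and for Rbpms at +95.7 kb at -0.57 when scaled. Thinning left no read at the Rbpms peak at +29.1 kb, and so no change. Without single libraries Sncg at +5.8 kb ranged from -1.05 to 0.32 (positive without P4 replicate 2), and the other Thy1 promoter peak from -0.50 to 0.25 (positive at 0.25 without P4 replicate 2 and 0.14 without P28 replicate 1). The summed level over member peaks, P28 less P4, was -1.02 RPM, with 2.97 over peaks with at least 20 reads (which leaves out those 6 peaks), -6.62 when thinned and -1.63 to -0.10 without single libraries. It was -44.1 when each library's RPM was scaled to the mean share of reads in peaks over the 7 libraries, another unit than the reads per 1000000 reads in peaks given above.

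Deviations from the age mean in same-numbered libraries of different ages had correlations over peaks from -0.001 to 0.0469. At an age with 2 libraries these deviations mirror each other, and reads per peak are few. This check therefore cannot exclude that the numbers pair the libraries. A replicate block left 0 member peaks called at P28 (14.1% of all peaks), 0 in the test over ages (15%) and 0 genes at P28 (30.6% of all genes), and at P10 2 of the 3 peaks (15.5%) and the 1 gene, Eomes (22.9%). The deposited unit was RPKM, and the planned edgeR test on recovered reads was not run. Voom on the recovered reads was added instead.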
